A study of Mus musculus with 5 samples.

Results

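Genomic windows around 7 imprinted loci that carry DNA methylation from the mother were examined in mouse embryonic stem cells: Gnas, Mcts2 and Nnat on chromosome 2, and Peg3, Snrpn, Inpp5f and Kcnq1ot1 on chromosome 7. The windows were set by position, not by the reads they hold, and they cover 144 steps of 500 bp among 4767580 such steps with a read on chromosomes 1 to 19 and X. Each of 5 libraries was made once. For MeDIP, sonicated and denatured DNA was pulled down by an antibody that recognises 5-methylcytosine (5mC), and for hMeDIP by one that recognises 5-hydroxymethylcytosine (5hmC), 2 µg each. In MethylCap, 1 µg of fragmented DNA was bound to 2 µg of a methyl-CpG binding domain (MBD) fused to GST, and bound DNA was released at 600 mM or at 800 mM NaCl. These 4 enriched libraries came, per the labels, from clones of the E14 line (a male mouse embryonic stem cell line) taken from a gene-trap library at passages 11 to 14. TNG-A cells, which are E14 cells with EGFP inserted as a reporter at Nanog, gave the chromatin input, so it comes from another line. All were grown without feeders in medium with leukaemia inhibitory factor and 10% fetal calf serum.

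At an imprinted locus the copies from mother and father differ in DNA methylation, and genes are transcribed mainly from 1 of them. At loci of the kind examined here the mark is set in the oocyte over a CpG-rich promoter, and it is kept on the maternal copy through the wave of demethylation in the early embryo, with the help of the zinc finger protein ZFP57. TET enzymes can oxidise 5mC to 5hmC, a modification to which MBD proteins of this kind bind poorly and to which a 5mC antibody is not directed. Reads were not assigned to a parent. Methylation of 1 copy in all cells and of both copies in some cells therefore cannot be told apart.

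The RefSeq promoters of these genes are shown because CpG dinucleotides, in capitals, are the sites that MBD and the antibodies can recognise when modified. Each run holds 250 bases before to 50 after a transcription start in GRCm38.p6, 5′ to 3′ on the gene's strand. The read windows are in mm9 and were not converted, so the overlap of promoter and window was not determined. Matched by symbol, 7 of 7 genes had 13 starts, of which 6 are shown. The single Inpp5f promoter is left out because the imprinted transcript starts inside that gene. Gnas had 4 starts, of which the first listed is shown. Snrpn had 4, and the one shown has the most CpG of them.

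Mcts2, chr2:152686898-152687197, plus strand: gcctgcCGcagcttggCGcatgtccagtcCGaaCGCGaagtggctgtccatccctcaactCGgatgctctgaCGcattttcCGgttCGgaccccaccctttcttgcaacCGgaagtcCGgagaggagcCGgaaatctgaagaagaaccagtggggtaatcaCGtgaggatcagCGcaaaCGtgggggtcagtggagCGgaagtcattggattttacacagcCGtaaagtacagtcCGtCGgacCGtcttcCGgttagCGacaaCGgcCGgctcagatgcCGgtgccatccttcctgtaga
Nnat, chr2:157559828-157560127, plus strand: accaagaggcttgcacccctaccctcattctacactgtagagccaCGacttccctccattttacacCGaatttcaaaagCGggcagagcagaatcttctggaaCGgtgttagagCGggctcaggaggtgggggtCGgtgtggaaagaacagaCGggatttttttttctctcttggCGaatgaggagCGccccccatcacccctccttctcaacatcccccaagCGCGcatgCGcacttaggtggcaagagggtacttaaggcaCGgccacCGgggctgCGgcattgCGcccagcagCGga
Gnas, chr2:174327499-174327798, plus strand: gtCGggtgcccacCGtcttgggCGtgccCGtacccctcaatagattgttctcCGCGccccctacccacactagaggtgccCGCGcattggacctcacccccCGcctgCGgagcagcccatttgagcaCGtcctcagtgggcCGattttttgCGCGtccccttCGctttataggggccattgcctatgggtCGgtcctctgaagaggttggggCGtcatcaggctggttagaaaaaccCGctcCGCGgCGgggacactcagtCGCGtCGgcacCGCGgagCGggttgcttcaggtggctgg
Peg3, chr7:6730370-6730669, minus strand: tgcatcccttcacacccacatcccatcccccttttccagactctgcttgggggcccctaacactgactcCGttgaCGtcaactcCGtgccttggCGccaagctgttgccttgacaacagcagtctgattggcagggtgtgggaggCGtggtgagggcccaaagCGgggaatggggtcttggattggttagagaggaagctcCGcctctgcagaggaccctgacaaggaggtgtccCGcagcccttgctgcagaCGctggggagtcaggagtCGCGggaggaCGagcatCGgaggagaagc
Snrpn, chr7:60005150-60005449, minus strand: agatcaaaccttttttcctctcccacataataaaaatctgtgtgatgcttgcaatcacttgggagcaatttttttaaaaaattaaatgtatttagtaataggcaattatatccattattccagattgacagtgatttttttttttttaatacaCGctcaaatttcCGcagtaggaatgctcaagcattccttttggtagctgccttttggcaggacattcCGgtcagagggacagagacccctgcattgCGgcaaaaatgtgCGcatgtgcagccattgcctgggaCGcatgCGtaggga
Kcnq1ot1, chr7:143296498-143296797, minus strand: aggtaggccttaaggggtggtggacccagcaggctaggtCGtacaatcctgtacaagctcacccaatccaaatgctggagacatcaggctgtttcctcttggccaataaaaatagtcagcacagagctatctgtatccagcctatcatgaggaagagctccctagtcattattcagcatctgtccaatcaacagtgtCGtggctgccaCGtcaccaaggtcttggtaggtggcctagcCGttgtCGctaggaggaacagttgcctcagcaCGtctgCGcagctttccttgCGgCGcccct

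These promoters held 25 CpG (Mcts2), 17 (Nnat), 27 (Gnas), 13 (Peg3), 7 (Snrpn) and 9 (Kcnq1ot1), against a median of 7 over all 32851 RefSeq promoters of 300 bases. The motif TGCCGC, which ZFP57 binds when it is methylated, was searched on both strands and occurred in 3 of the 13 starts: Mcts2, Nnat and the Snrpn start shown. It occurred in 11.6% of all promoters.

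The libraries held 7507520 (800 mM eluate) to 18676265 (input) reads of 35 bp on chromosomes 1 to 19 and X, and values are given as RPM, reads scaled to a total of 1000000 of these. Folds over input are ratios of RPM. The exact 95% intervals given with them (conditional binomial, Clopper-Pearson) describe counting error alone, because the reads carry no molecular identifiers and may repeat a molecule. With 1 library per group no test was possible, and no difference has a replicate check.

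In the 600 mM eluate 6 of the 7 windows were highly enriched, and less so at 800 mM and with the 5mC antibody. In hMeDIP only Gnas had an interval above the input level. At 600 mM the windows ranged from 1.99-fold (Snrpn) to 33.0-fold (Nnat) over input, with a median of 13.6-fold, and 6 of 7 reached 3-fold. Of all genomic windows with at least 10 input reads, 9.22, 9.11, 8.89, 8.67, 8.46 and 4.81% did so at the 6 lengths of 3000, 3500, 4000, 4500, 5000 and 47000 bp. At 800 mM the median was 4.87-fold (1.91 to 13.4) and 6 of 7 reached 3-fold, against 9.93, 9.86, 9.64, 9.45, 9.22 and 5.24% of all windows at these lengths. With the 5mC antibody the median was 3.36-fold (0.873 to 5.90) and 4 of 7 reached 3-fold, against 7.27, 7.17, 6.92, 6.65, 6.42 and 2.38%. With the 5hmC antibody the median was 0.736-fold (0.329 to 1.93) and 0 of 7 reached 3-fold, against 5.87, 5.62, 5.3, 5.04, 4.76 and 1.48%. The medians over all windows of these lengths were 0.740 to 0.797-fold in hMeDIP, with Peg3, Snrpn, Mcts2 and Kcnq1ot1 below and Nnat, Inpp5f and Gnas above that range, Kcnq1ot1 by a small margin.

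**Figure D1:**
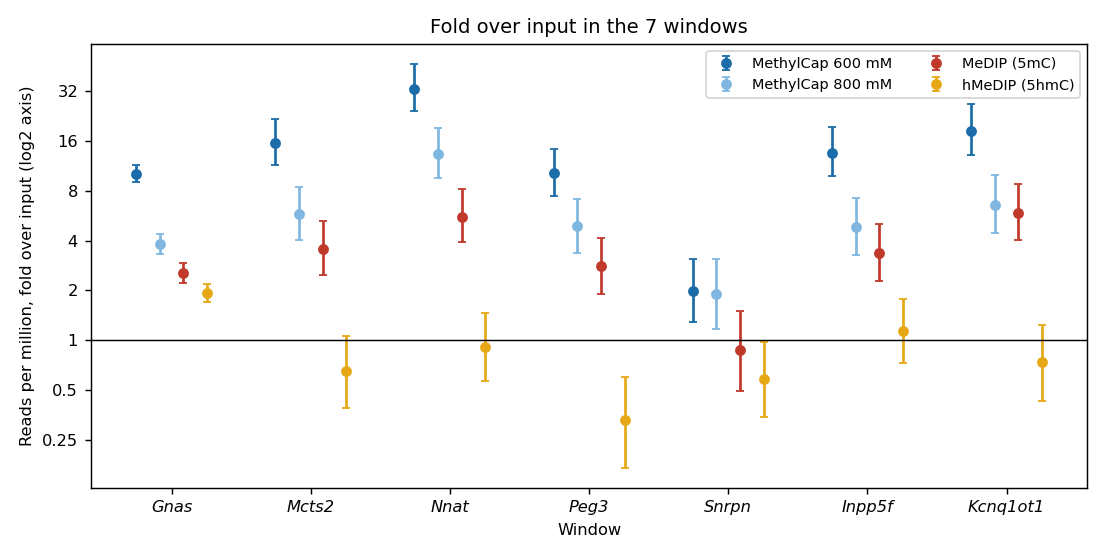
Fold over input in RPM (log2 axis) for each window and enriched library, with 1 point per library and bars for the exact 95% interval of counting error. The 600 mM eluate was highest in all 7 windows, while hMeDIP lay between 0.329-fold and 1.93-fold.

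Most of the signal lay in short stretches of the windows. A run of steps at 3-fold or more in the 600 mM eluate was therefore taken around the highest 600 mM step of each window, here called the core. The core describes the 600 mM eluate and the input, whose ratio set it, and the other libraries are read over it. Steps with little input enter a core more easily, which can raise the fold of every library there. Step ratios used (RPM + 0.5)/(input RPM + 0.5), whereas folds over cores and windows are raw ratios. In 5 of the 7 windows (Mcts2, Nnat, Peg3, Inpp5f and Kcnq1ot1) the core was 1500 bp long. It was 4000 bp in Gnas and 500 bp in Snrpn. Input was sparse over most cores, for example 4 reads per kb in Kcnq1ot1 against 8.34 over its window and flanks. Core folds therefore have wide intervals and, where input was sparse, may be too high.

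**Figure D2:**
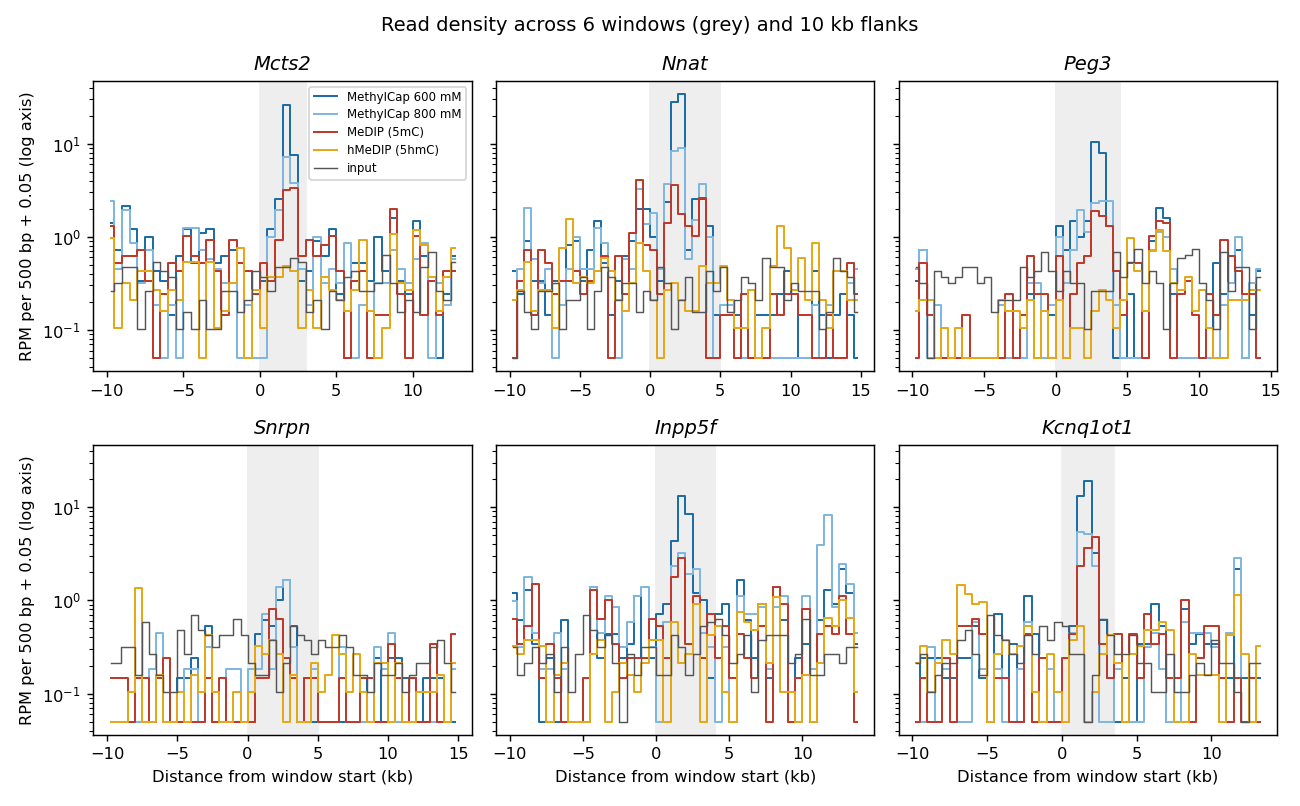
RPM in 500 bp steps (plus 0.05, log axis) against distance from the window start in kb, for 6 windows (grey) with 10 kb flanks and all 5 libraries. The eluates and MeDIP rise inside 5 of these windows. In Snrpn the eluates also rise, but from flanks with few reads and to a lower level than in those 5. No MeDIP step reaches 3-fold in Snrpn, and in none of the 6 windows does an hMeDIP step reach 3-fold.

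Mcts2 is a retrogene inside an intron of H13 and is transcribed from the paternal copy. Its window (chr2:152511001-152514000 in mm9) held 394 reads at 600 mM, 105 at 800 mM, 90 in MeDIP, 29 in hMeDIP and 45 in input. This was 15.6-fold over input at 600 mM (11.5 to 21.8), 5.80-fold at 800 mM (4.06 to 8.42), 3.58-fold in MeDIP (2.47 to 5.24) and 0.650-fold in hMeDIP (0.393 to 1.06). Only the hMeDIP interval included the input level. The core at chr2:152512001-152513500 held 95.4% of the 600 mM reads of the window, 90.5% of the 800 mM reads and 84.4% of the MeDIP reads. Its 26 input reads make it the core with the most input reads per kb (17.3).

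Nnat encodes neuronatin, a small membrane protein, and lies in an intron of Blcap. It had the highest MBD signal of the 7. Its window (chr2:157384001-157389000) held 759 reads at 600 mM, 221 at 800 mM, 128 in MeDIP, 37 in hMeDIP and 41 in input. The folds were 33.0 at 600 mM (24.1 to 46.4), 13.4 at 800 mM (9.57 to 19.2), 5.58 in MeDIP (3.90 to 8.14) and 0.910 in hMeDIP (0.567 to 1.46). Of all windows of 5000 bp, 0.00893% were as high at 600 mM. The core at chr2:157385001-157386500 held 673, 156, 69 and 12 reads of the 4 enriched libraries in the same order, against 9 in input. A second run at chr2:157387001-157388000 held 52, 38, 37 and 10 reads against 4. The core was chosen for its 600 mM reads, which can lower its ratio of 800 mM to 600 mM. This ratio was 0.323 (0.270 to 0.385) in the core and 1.02 (0.652 to 1.58) in the second run, whereas the 5hmC antibody was low relative to the 5mC antibody in both, at 0.0981 (0.0483 to 0.182) and 0.152 (0.0676 to 0.313).

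Kcnq1ot1 is a long noncoding RNA that is transcribed from the paternal copy of an intron of Kcnq1, antisense to that gene, and silences neighbouring genes in cis. Its window (chr7:150480001-150483500) held 381 reads at 600 mM, 98 at 800 mM, 122 in MeDIP, 27 in hMeDIP and 37 in input. It had the highest MeDIP fold of the 7 at 5.90 (4.05 to 8.77), next to 18.4-fold at 600 mM (13.1 to 26.5), 6.59-fold at 800 mM (4.47 to 9.90) and 0.736-fold in hMeDIP (0.431 to 1.24). The core at chr7:150481001-150482500 held 369 reads at 600 mM, 95 at 800 mM, 112 in MeDIP, 10 in hMeDIP and 6 in input. These are 96.9% of the window's 600 mM reads and 91.8% of its MeDIP reads, but 37.0% of its hMeDIP reads and 6 of its 37 input reads. In its step of 500 bp with the most 600 mM reads (200), MeDIP held 38 reads and hMeDIP and input none. The largest MeDIP count lay in the next step, with 50 MeDIP and 33 600 mM reads. The 600 mM reads thus fell between these steps and the MeDIP reads did not. Counts of 38 and 50 are too close to place the MeDIP peak in either step.

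Inpp5f encodes an inositol phosphatase, and the imprinted transcript starts from a CpG island inside the gene. The window (chr7:135830001-135834000) held 312 reads at 600 mM, 80 at 800 mM, 77 in MeDIP, 46 in hMeDIP and 41 in input. This was 13.6-fold (9.79 to 19.3), 4.85-fold (3.29 to 7.26), 3.36-fold (2.27 to 5.03) and 1.13-fold (0.726 to 1.77) over input. The core at chr7:135831001-135832500 held 273, 55, 50 and 17 reads against 14. It thus held 17 of the window's 46 hMeDIP reads and 14 of its 41 input reads, which are similar shares. The step next to the core, at chr7:135832501-135833000, had the most hMeDIP reads (16 against 4 in input, 1.91-fold with the pseudocount). It held 12 reads at 600 mM and 16 at 800 mM.

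Peg3 encodes a zinc finger protein and is transcribed from the paternal copy. Its window (chr7:6680001-6684500) held 263 reads at 600 mM, 90 at 800 mM, 72 in MeDIP, 15 in hMeDIP and 46 in input. The folds were 10.2 (7.44 to 14.3), 4.87 (3.38 to 7.10), 2.80 (1.91 to 4.15) and 0.329 (0.171 to 0.600). Its hMeDIP fold was the lowest of the 7, and 83.1% of all windows of 4500 bp were at or above it. The flanks of Peg3 were 0.553-fold in hMeDIP, but the 2 sides differed. The 10 kb before the window held 23 hMeDIP reads against 115 in input, and the 10 kb after it 113 against 133. The low value thus extended beyond the window on the side before it, whereas the counts on the other side were much closer. The core at chr7:6682001-6683500 held 205, 43, 42 and 6 reads against 9.

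Snrpn encodes a splicing factor subunit, and its upstream promoter is part of the imprinting centre of the region that corresponds to the human Prader-Willi locus. It stood apart from the other 6 by its weak signal. The window (chr7:67147001-67152000) held 48 reads at 600 mM, 33 at 800 mM, 21 in MeDIP, 25 in hMeDIP and 43 in input. It was 1.99-fold over input at 600 mM (1.29 to 3.08), 1.91-fold at 800 mM (1.18 to 3.08), 0.873-fold in MeDIP (0.492 to 1.50) and 0.586-fold in hMeDIP (0.343 to 0.982). The upper limit at 600 mM lay below the lower limit of each of the other 6 windows. Of all windows of 5000 bp, 16.9% were as high at 600 mM. Its core was 1 step, chr7:67149501-67150000, with 17, 12, 2 and 0 reads against 3 in input. The absence of hMeDIP reads there allows up to 2.44-fold over input.

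Snrpn lies in a stretch with few reads of any enriched library. Its flanks of 10 kb on each side held 22 reads at 600 mM, 19 at 800 mM, 25 in MeDIP and 77 in hMeDIP against 179 in input, or 0.219, 0.264, 0.250 and 0.434-fold. Relative to these flanks and to input, the window was 8.99-fold higher at 600 mM (4.76 to 17.5), 7.16-fold at 800 mM (3.58 to 14.7), 3.48-fold in MeDIP (1.68 to 7.17) and 1.35-fold in hMeDIP (0.736 to 2.44). On this scale Snrpn was the middle one of the 7 at 600 mM and in MeDIP. With flanks of 20 kb the 800 mM value was 0.885-fold, and 5 steps between 14.5 and 18.5 kb from the window held 35 to 71 reads at 800 mM and at most 5 at 600 mM.

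The same comparison in the other windows gave 5.92-fold (Mcts2) to 20.2-fold (Nnat) at 600 mM and 1.82-fold (Mcts2) to 6.44-fold (Kcnq1ot1) in MeDIP, with every interval above 1 in both libraries, Snrpn included. At 800 mM it ranged from 1.39-fold (Inpp5f, 0.895 to 2.17) to 9.10-fold (Peg3, 5.62 to 14.9). With flanks of 20 kb the Peg3 values were 2.87-fold at 800 mM, 4.78-fold at 600 mM (from 15.8) and 1.99-fold in MeDIP (from 3.79), and Gnas at 800 mM was 1.27-fold (from 2.17). In hMeDIP it ranged from 0.485-fold (Mcts2, 0.282 to 0.826) to 1.35-fold (Snrpn). The interval was below 1 in 2 windows, Mcts2 and Kcnq1ot1 (0.510-fold, 0.286 to 0.899), and above 1 in none. On this scale hMeDIP was lower in Mcts2 and Kcnq1ot1 than in the DNA around them, and in the other windows the interval included 1. This depended on the input, whose density was 1.68 (Mcts2) and 1.33 (Kcnq1ot1) times that of the flanks. Without the input, the density of hMeDIP reads was 0.812 times that of the flanks in Mcts2 and 0.677 in Kcnq1ot1. It was lower in Nnat (0.574) and Peg3 (0.490), and higher in Gnas (0.835), Inpp5f (1.19) and Snrpn (1.30).

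Gnas is a complex locus. It encodes the stimulatory G protein alpha subunit and, from promoters further upstream, Nesp, which is transcribed from the maternal copy, and Gnasxl, which is transcribed from the paternal copy together with the antisense RNA Nespas. Maternal methylation is known at the Nespas and Gnasxl promoters and at an untranslated first exon close to Gnas, and the Nesp promoter is methylated on the paternal copy. The window is long (chr2:174109001-174156000, 94 steps) and was the only one in which the hMeDIP interval lay above the input level. It held 1992 reads at 600 mM, 539 at 800 mM, 498 in MeDIP, 671 in hMeDIP and 351 in input. The folds were 10.1 (9.04 to 11.4), 3.82 (3.33 to 4.38), 2.54 (2.21 to 2.92) and 1.93 (1.69 to 2.20). The flanks were as high in hMeDIP, at 1.97-fold.

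**Figure D3:**
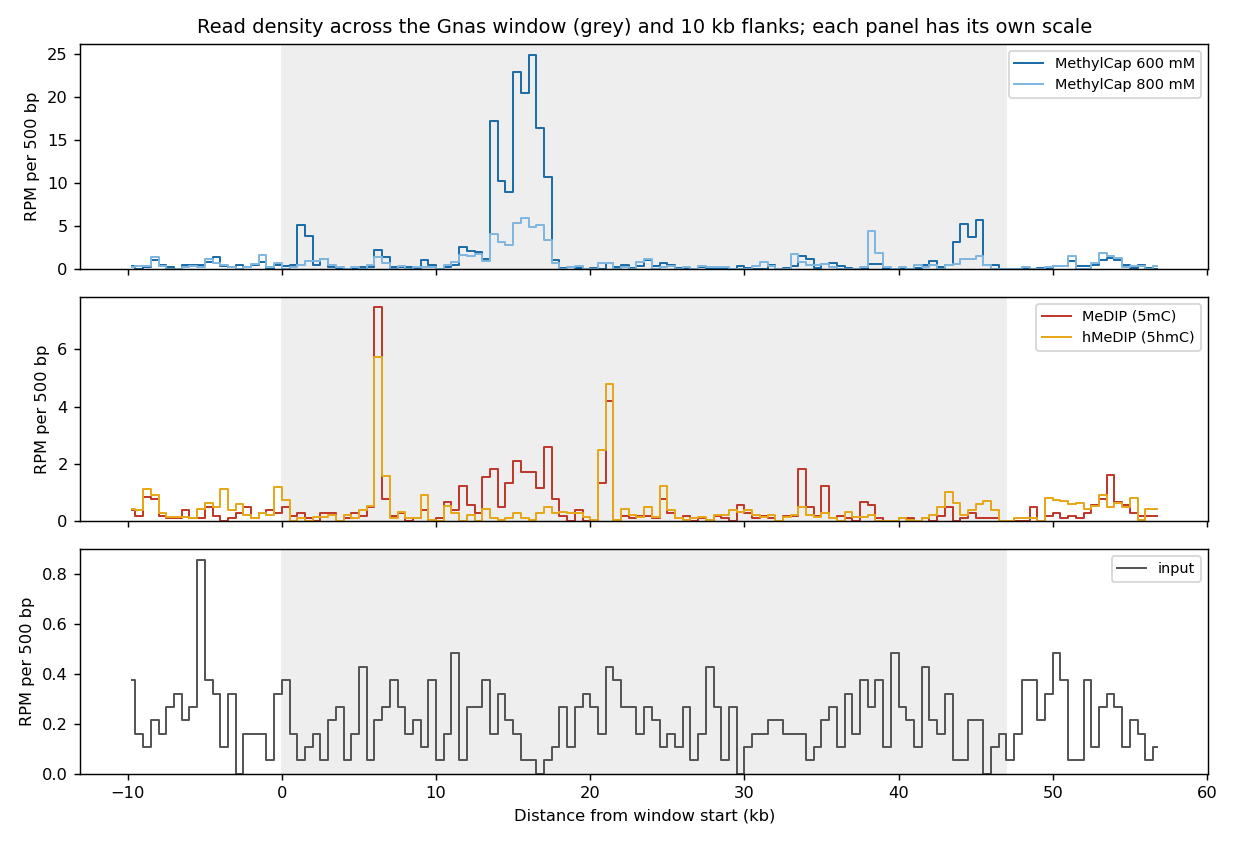
RPM in 500 bp steps against distance from the start of the Gnas window in kb, with the eluates, the antibodies and input in separate panels on their own scales. The broad 600 mM peak lies 13.5 to 17.5 kb from the start, while the 2 highest peaks of both antibodies, near 6 and 21 kb, have much less MBD signal than that peak.

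The step count showed how the signals were distributed. At 600 mM, 18 of the 94 Gnas steps reached 3-fold, at 800 mM 11, in MeDIP 10 and in hMeDIP 3. In the other 6 windows together 18 of 50 steps did so at 600 mM, 21 at 800 mM, 10 in MeDIP and 0 in hMeDIP. Of all steps with a read, 1.75% reached 3-fold at 600 mM, 2.59% at 800 mM, 1.44% in MeDIP and 1.11% in hMeDIP.

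Within Gnas, 4 runs of at least 2 steps were called at 600 mM. They were not assigned to single transcripts, because no mm9 gene models were used here. The core, 13.5 to 17.5 kb from the window start (chr2:174122501-174126500), held 1379 reads at 600 mM, 257 at 800 mM, 135 in MeDIP, 27 in hMeDIP and 19 in input. This was 129.6-fold over input at 600 mM (82.6 to 216), 33.6-fold at 800 mM (21.1 to 56.8), 12.7-fold in MeDIP (7.83 to 21.8) and 1.43-fold in hMeDIP (0.768 to 2.73). Against the input rate of the whole window and its flanks, a comparison added after the values were seen, the core was 78.4-fold at 600 mM, 20.4-fold at 800 mM and 7.69-fold in MeDIP. It held 69.2% of the 600 mM reads of the window but 4.02% of its hMeDIP reads and 19 of its 351 input reads. A smaller run just before it, at chr2:174120501-174122000, held 68, 36, 22 and 4 reads against 11.

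The outer runs had few reads of the 5mC antibody. The run near the window start, chr2:174110001-174111000, held 93 reads at 600 mM, 10 at 800 mM, 4 in MeDIP, 2 in hMeDIP and 3 in input. The run near its end, chr2:174152501-174154500, held 184 reads at 600 mM, 31 at 800 mM, 5 in MeDIP, 34 in hMeDIP and 10 in input. In this last run MeDIP was 0.894-fold over input (0.240 to 2.87), while hMeDIP was 3.43-fold (1.66 to 7.78). Against the input rate of the whole window and its flanks these were 0.570-fold and 2.18-fold, the latter close to hMeDIP over the whole window (1.93-fold) and its flanks (1.97-fold). The ratio of hMeDIP to MeDIP was 3.83 (1.49 to 12.6), against 0.113 (0.0717 to 0.171) in the core, and the intervals do not overlap. Its hMeDIP reads were spread over all 4 steps, with 19 on the plus and 15 on the minus strand. MeDIP reads were thus rare in both outer runs although the 600 mM eluate was 55.3-fold (18.4 to 273) and 32.8-fold (17.5 to 69.6) over input there. The first of these rests on 3 input reads. Against the input rate of window and flanks they were 21.1-fold and 20.9-fold.

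The antibodies peaked elsewhere in Gnas. At chr2:174115001-174115500 MeDIP held 78 reads and hMeDIP 106, against 23 at 600 mM, 10 at 800 mM and 4 in input. At chr2:174129501-174130500 MeDIP held 58 and hMeDIP 135, against 7, 10 and 11. Reads of the first were almost all on the plus strand, 94.9% in MeDIP and 94.3% in hMeDIP, whereas the eluates had 65.2% and 60% there. Such imbalance was common in the antibody libraries: of all steps with at least 50 reads, 50.3% in MeDIP and 53.6% in hMeDIP had 90% or more of them on 1 strand, against 9.43% at 600 mM and 0.707% at 800 mM. Over the core the MeDIP reads were divided into 81 plus and 54 minus. In the other windows MeDIP ranged from 66 plus and 62 minus reads (Nnat) to 19 and 2 (Snrpn). There hMeDIP ranged from 8 plus and 7 minus reads (Peg3) to 26 and 1 (Kcnq1ot1). Without the 3 steps at 3-fold or more in hMeDIP, the Gnas window was 1.29-fold over input in hMeDIP (1.12 to 1.49). These steps were left out for their high hMeDIP values, so the fold was bound to fall.

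The antibodies were then compared directly, which does not use the input. The 5hmC antibody was below the 5mC antibody in all 7 windows, with intervals below 1 in 6, and the median ratio was 0.182. Of all windows with at least 10 reads in both libraries, 60.5, 59, 57.9, 56.8, 56 and 47.6% were below 1 at the lengths from 3000 to 47000 bp, and their median ratios were 0.865 to 1.02. The lowest ratios were those of Peg3 (0.117, 0.0625 to 0.207), Kcnq1ot1 (0.125, 0.0790 to 0.191), Nnat (0.163, 0.110 to 0.237) and Mcts2 (0.182, 0.115 to 0.279), whose intervals overlap. Inpp5f followed at 0.337 (0.229 to 0.492), then Snrpn at 0.671 (0.361 to 1.26) and Gnas at 0.760 (0.676 to 0.855). Between 0.00677% (Peg3) and 2.64% (Inpp5f) of the windows with at least 10 reads in both libraries were as low as the first 5 of these. The share was 25.5% for Snrpn and 13.6% for Gnas. Windows with fewer hMeDIP reads were not counted, so these shares may be too low. Without its core, Gnas had a ratio of 1.00 (0.878 to 1.14).

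**Figure D4:**
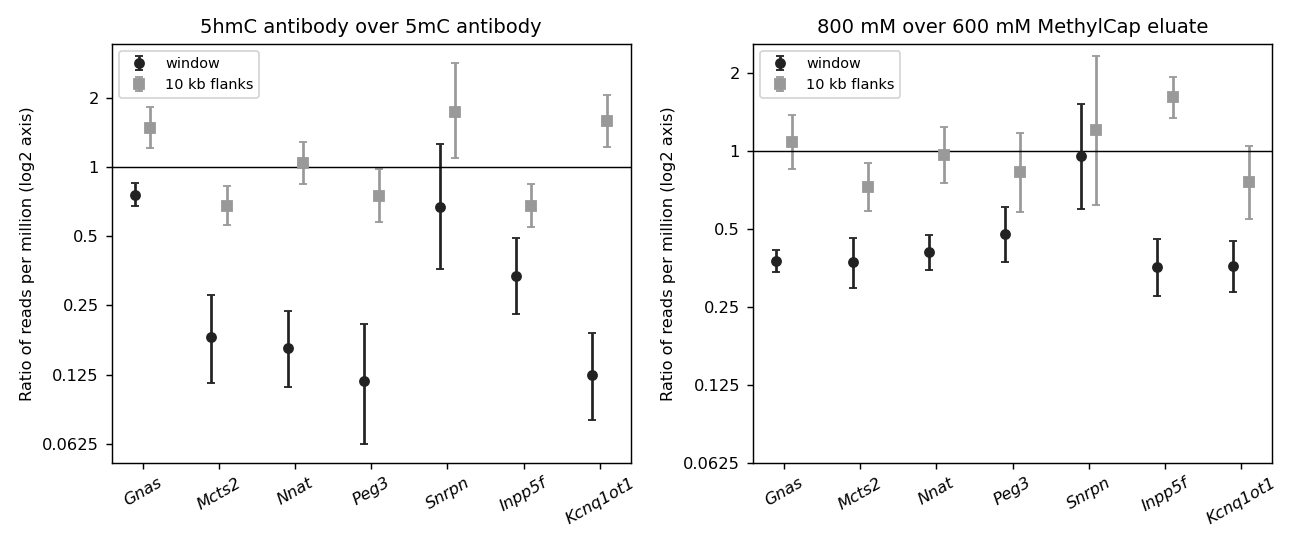
Ratio of RPM (log2 axis) between the antibodies (left) and between the eluates (right) in each window and its flanks, with exact 95% intervals of counting error. The antibody ratio was lower in the window than in the flanks at all 7 loci, and the eluate ratio was 0.357 to 0.477 in 6 windows and 0.958 in Snrpn.

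The flanks had higher ratios than the windows. In the flanks the antibody ratio was 0.680 (Inpp5f) to 1.74 (Snrpn). It was also below 1 in the flanks of Inpp5f (0.549 to 0.844), Mcts2 (0.681, 0.562 to 0.827) and Peg3 (0.752, 0.577 to 0.982). The window lay below its flanks at all 7 loci, from 0.0792-fold (Kcnq1ot1, 0.0465 to 0.131) to 0.512-fold (Gnas, 0.402 to 0.650), with every interval below 1.

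Relative to the whole of each eluate, 6 windows made up a larger share of the reads at 600 mM than at 800 mM. The ratio of 800 mM to 600 mM was 0.357 (Inpp5f, 0.276 to 0.458), 0.358 (Kcnq1ot1, 0.284 to 0.449), 0.371 (Mcts2, 0.297 to 0.462), 0.377 (Gnas, 0.342 to 0.415), 0.406 (Nnat, 0.348 to 0.472) and 0.477 (Peg3, 0.371 to 0.608), and the intervals of these 6 overlap. In Snrpn it was 0.958 (0.596 to 1.52). Of all windows with at least 10 reads in both eluates, 41.8, 43.3, 44.7, 45.6, 46.7 and 56.4% were below 1 at the same lengths. Between 0.0762% (Gnas) and 1.49% (Peg3) of them were as low as these 6. Windows with fewer reads at 800 mM were not counted, so these shares may be too low.

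To place the members among other strongly captured DNA, all steps of 500 bp with at least 100 reads at 600 mM were taken. The members had 14 such steps, 7 of them in Gnas, 2 each in Nnat and Kcnq1ot1, 1 each in Mcts2, Peg3 and Inpp5f and none in Snrpn, and the rest of the genome had 769. In the 14 steps the 5mC antibody had a median of 20.5 reads and in the other steps 21. The median at 600 mM was higher in the members, at 190 reads against 137. Summed over the steps, MeDIP was 0.115 of the 600 mM eluate (0.102 to 0.129) in the members and 0.226 (0.223 to 0.229) in the others. MeDIP was thus also low for the capture in the members. The 5hmC antibody had a median of 3 reads (0 to 9) in the 14 steps and 22 (0 to 556) in the others. At least 3-fold over input in hMeDIP were 0 of 14 member steps and 35.8% of the others, whereas in MeDIP 13 of 14 and 59.6% reached it.

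Summed over these steps, hMeDIP was 0.0972 of MeDIP (0.0717 to 0.130) in the members and 0.526 (0.517 to 0.535) in the others, and 0.0854 (0.0562 to 0.126) in the 7 member steps outside Gnas. The medians of the single step ratios, with 0.5 RPM added to both libraries, were closer, at 0.268 and 0.596. Neighbouring steps of 1 locus are not independent.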

How the data were processed

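Each line of the deposited files is 1 read of 35 bp with a position and strand in mm9. The submitters' processing notes name BWA 0.5.8 and the mm9 build. In the deposited files column 5, a count, is 1 in every line, so read counts are raw. Column 4 of the deposited files, treated as a score, is 0 or 1, and its meaning was not given in the sources used here. The share of reads with 1 was 7.88 to 8.38% in the eluates and the input and 0 in both antibody libraries. At most 1 read was listed per position and strand (2 in the eluates), which limits the height of dense peaks. The fullest step of the members held 354 reads over 1000 positions and strands.

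Reads were assigned by midpoint, and scaled to the reads on chromosomes 1 to 19 and X (RPM). Intervals were computed with scipy 1.17.1, and those of window to flank ratios are conditional exact intervals of the odds ratio. The interval script was checked on simulated reads with known folds. All 7 members are described. Also named in each window were the highest step of each library and the 600 mM runs. The regions, steps and thresholds were chosen with earlier results of these data known. The comparison with strongly captured steps, the strand counts, the flank steps, the windows without single steps and the local input were added after the values were seen. Alternatives were another read placement, scaling, duplicates, column 4, step size, pseudocount, threshold and flank size.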

Additional observations from a re-analysis of the deposited data

How the results depend on the processing

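Of 72 recomputed medians and counts of regions, 67 stayed within the interval of the value reported or, for counts, within 1.5 times of it. The interval of a median is that of its middle region. Some values could not change, because the antibody libraries had no reads with 1 in column 4 and no repeated positions. Their median ratio was therefore 0.182 again when such reads or duplicates were left out. With flanks of 20 kb the median window to flank ratio over that of input at 800 mM was 2.62-fold instead of 6.86-fold, and the Snrpn value turned from 7.16-fold to 0.885-fold. Gnas fell from 2.17 to 1.27-fold there, and Peg3 from 9.10 to 2.87-fold at 800 mM, from 15.8 to 4.78-fold at 600 mM and from 3.79 to 1.99-fold in MeDIP. The number of regions with a step at 3-fold or more was 7 of 7 at 600 mM and 800 mM, 6 in MeDIP and 1 in hMeDIP. Of all steps with a read, 1.75, 2.59, 1.44 and 1.11% reached it in these libraries, and the Gnas window alone has 94 steps. At a 5-fold threshold the number of regions was 6 at 600 mM, 4 at 800 mM and 3 in MeDIP. With a pseudocount of 1 RPM it was 6 at 600 mM, 5 at 800 mM and 3 in MeDIP, and with 0.1 RPM it was 2 in hMeDIP. At 600 mM it was also 6 with steps of 250 bp, with moved reads, or without reads with 1 in column 4. The median ratio to input of 1 kb bins was 0.757 at 600 mM, 0.704 at 800 mM, 0.834 for MeDIP and 0.839 for hMeDIP. With this ratio set to 1 the Gnas window became 13.4, 5.43, 3.04 and 2.30-fold, in the same order of libraries. When the input of the window and flanks replaced that of the run (chosen after seeing the data), the Gnas core was 78.4-fold at 600 mM, 20.4-fold at 800 mM and 7.69-fold in MeDIP, and the Mcts2 core was 45.9-fold, 16.2-fold and 9.30-fold. The Peg3 core was 20.3-fold at 600 mM. For all of these values, that of Snrpn included, the cause was not tested beyond the change of setting itself. No paired analysis was possible because each group has 1 library. Low counts widen the intervals: windows other than Gnas held 15 to 46 hMeDIP reads, and Snrpn held 21 MeDIP and 33 reads of the 800 mM eluate, the shallowest library.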

Other observations

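Outside the windows, single steps within 20 kb carried signals of their own. Beside Inpp5f, the steps at chr7:135841001-135841500 and chr7:135841501-135842000 held 29 and 62 reads at 800 mM, 6 and 13 at 600 mM, 4 and 5 in MeDIP and 3 and 11 in hMeDIP. The flanks of Inpp5f, which include these steps, were 3.50-fold over input at 800 mM, the highest flank value of that library among the 7 loci. Beside Gnas, the step at chr2:174171501-174172000, 15.5 kb past the window, held 74 reads at 800 mM, 27 at 600 mM, 18 in MeDIP and 37 in hMeDIP against 1 in input. Beside Nnat, the step at chr2:157383001-157383500 held 42 MeDIP and 15 hMeDIP reads against 2 in input, with 20 reads at 600 mM and 24 at 800 mM. Beside Peg3, neighbouring steps at chr7:6663001-6663500 and chr7:6663501-6664000 held 111 and 105 reads at 600 mM, 36 and 16 in MeDIP and 14 and 15 in hMeDIP. Inside Gnas, the step at chr2:174147001-174147500 held 33 reads at 800 mM and 6 at 600 mM.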
